A study of Mus musculus with 22 samples.

Results

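The genes of the mitochondrial genome were followed through 22 RNA-seq libraries of mouse striatum. They were chosen by name, as all genes whose symbol begins with mt- in the GENCODE M21 annotation of GRCm38. That annotation holds 37 such genes, of which 13 encode proteins, 2 encode ribosomal RNA and 22 encode transfer RNA. The count table has 23119 Ensembl genes, and 13 of the 37 are among them, namely all 13 that encode proteins. None of the 2 ribosomal RNA genes and none of the 22 transfer RNA genes has a value in it, so those classes were not analysed here.

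Adult male C57BL/6J mice self-administered oxycodone, an opioid analgesic, at 0.25 mg/kg per infusion for 4 h a day over 14 days. Yoked controls of the same strain and sex were infused with saline on the same schedule. The ventral striatum, which includes the nucleus accumbens, gave 6 oxycodone and 6 saline libraries, and the dorsal striatum gave 5 and 5. The labels do not say that each library is a separate mouse, so p-values measure the spread between these libraries. Titles of 5 dorsal libraries carry a suffix P of unstated meaning, and within each treatment 1 pair of dorsal libraries shares a title number. The RNA is from bulk tissue, so fewer cells of a type and less RNA per cell cannot be told apart.

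The mitochondrial genome is a small circle that is transcribed from both strands into long precursors. These are cut at transfer RNA genes into mature messages, which mitochondrial ribosomes translate. All of its proteins are core membrane subunits of the machinery of oxidative phosphorylation, the process by which neurons make most of their ATP. Of the 13 genes, 7 serve complex I (NADH dehydrogenase), 1 serves complex III (cytochrome bc1), 3 serve complex IV (cytochrome c oxidase) and 2 serve ATP synthase. Copies of mitochondrial DNA that were inserted into chromosomes are also part of the nuclear genome, and many are annotated as pseudogenes.

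The ventral libraries held 8408829 to 11000345 counts each, and the dorsal libraries 11314079 to 21921963. All 10 listed markers of striatal projection neurons were in the table and none was at 0 in any group. Levels are given as CPM, counts relative to the library size, scaled by TMM factors unless stated. The summed level of these markers was 3749 to 5267 CPM in the ventral libraries other than replicate 6 of either treatment. It was 425 in ventral saline replicate 6, 8834 in ventral oxycodone replicate 6, and 8206 to 9728 in the dorsal libraries. Markers of choroid plexus and ependyma summed to 1809.6 CPM in ventral oxycodone replicate 6, against 22.7 to 76.9 in the other 11 ventral libraries. Results on ventral tissue are therefore also given without both of these libraries. Region cannot be told apart from library series, since only ventral libraries carry lane labels and the dorsal ones are deeper.

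The 13 messages together took more of the counts in ventral than in dorsal striatum, in every library of either treatment. In the ventral saline libraries the share was 6.49%, 7.06% and 7.12% of all counts at the lowest, the median and the highest. With oxycodone it was 5.98%, 6.85% and 9.25%. The highest was replicate 6, and the next highest library of that group stood at 7.05%. The 5 dorsal saline libraries held 3.22%, 3.35%, 4.12%, 3.30% and 3.13%, and the 5 dorsal oxycodone libraries 3.11%, 3.15%, 2.93%, 3.48% and 3.40%. All 10 dorsal shares lay below all 12 ventral ones, and within a region the treatments overlapped. As a sum over the members the share was not tested.

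**Figure D1:**
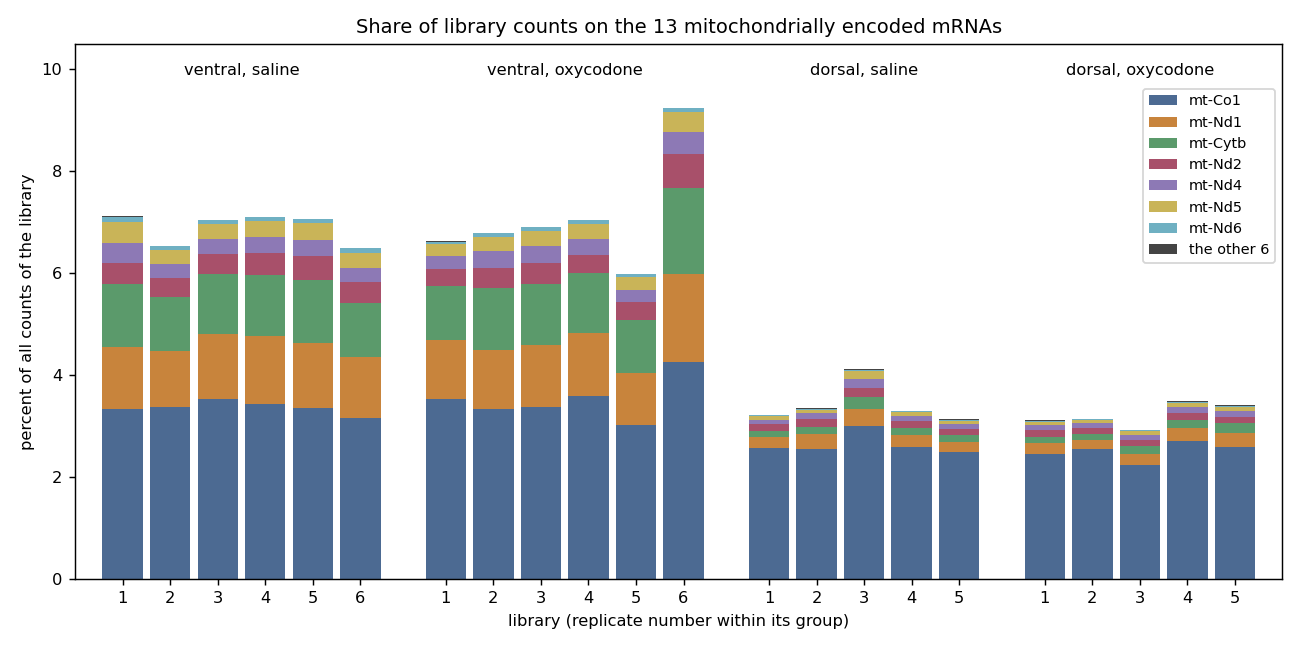
Percent of all counts of a library (vertical axis) on the 13 mitochondrially encoded messages, stacked by gene, for each of the 22 libraries (horizontal axis, grouped by region and treatment). Ventral bars reach 5.98% to 9.25%, dorsal bars 2.93% to 4.12%, and the mt-Co1 segment makes up most of each dorsal bar.

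The make-up of the mitochondrial counts differed between the regions as well. mt-Co1, the catalytic subunit of cytochrome c oxidase, took 48.8% ± 1.76 of the mitochondrial counts in ventral saline libraries and 77.2% ± 2.73 in dorsal ones (SD, n = 6 and 5). In the oxycodone libraries it took 49.8% ± 2.47 and 77.9% ± 1.87. mt-Nd1, a complex I subunit beside the quinone site, went the other way, with 18.0% ± 0.67 in ventral and 7.36% ± 0.80 in dorsal saline libraries. mt-Cytb, the cytochrome b of complex III, took 16.8% ± 0.476 and 4.61% ± 0.809. For these 3 genes the ranges of the regions did not overlap in either treatment. The shares are parts of a whole, so a larger mt-Co1 share leaves less for the others. In CPM mt-Co1 itself was lower in dorsal tissue, at 33768 ± 1084 in ventral and 26314.5 ± 2343 in dorsal saline libraries. Outside mt-Co1 and the 5 genes of lowest level, the other 7 members made up 3.53% ± 0.24 of ventral and 0.781% ± 0.192 of dorsal saline counts.

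Per kilobase of annotated length, the levels of the 13 genes were far apart in ventral tissue, with mt-Co1 4990-fold above mt-Co2, a partner in the same enzyme. In the ventral saline libraries mt-Co1 led with 21856 ± 702 CPM per kilobase (SD, n = 6), followed by mt-Nd1 with 13006 ± 836 and mt-Cytb with 10205 ± 576. The libraries of these 3 genes did not overlap. mt-Nd2, mt-Nd4, mt-Nd5 and mt-Nd6 came next, at 4021, 2262, 1765 and 1585 CPM per kilobase, where mt-Nd2 stood clear of mt-Nd4 and the other neighbours among them overlapped. mt-Nd3 followed at 124 ± 28.8 CPM per kilobase. Far below lay 5 genes, with mt-Co2 at 4.38, mt-Co3 at 4.23, mt-Atp6 at 2.00, mt-Nd4l at 0.786 and mt-Atp8 at 0.78 CPM per kilobase. Among these 5, mt-Co2 and mt-Co3 overlapped each other, and mt-Atp6, mt-Nd4l and mt-Atp8 overlapped along the order.

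The dorsal saline libraries kept mt-Co1 on top and the same 5 genes at the bottom, but the range was narrower. mt-Co1 stood at 17032 ± 1517 CPM per kilobase (SD, n = 5), mt-Nd1 at 2640.4 ± 516, mt-Cytb at 1400.4 ± 439 and mt-Nd2 at 1326 ± 280.3. mt-Nd4, mt-Nd5 and mt-Nd6 followed at 854, 494 and 338 CPM per kilobase, with each pair of neighbours from mt-Cytb to mt-Nd6 overlapping. mt-Nd3 stood at 117 ± 3.37, almost the ventral level. The lowest 5 were mt-Co3 at 65.7, mt-Co2 at 21.8, mt-Atp6 at 18.8, mt-Atp8 at 14.3 and mt-Nd4l at 7.12 CPM per kilobase. Of these only mt-Co3 lay apart from its neighbours. The 5 genes held 0.0117% of the mitochondrial counts in ventral saline and 0.251% in dorsal saline libraries, and they were grouped after their values had been seen.

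**Figure D2:**
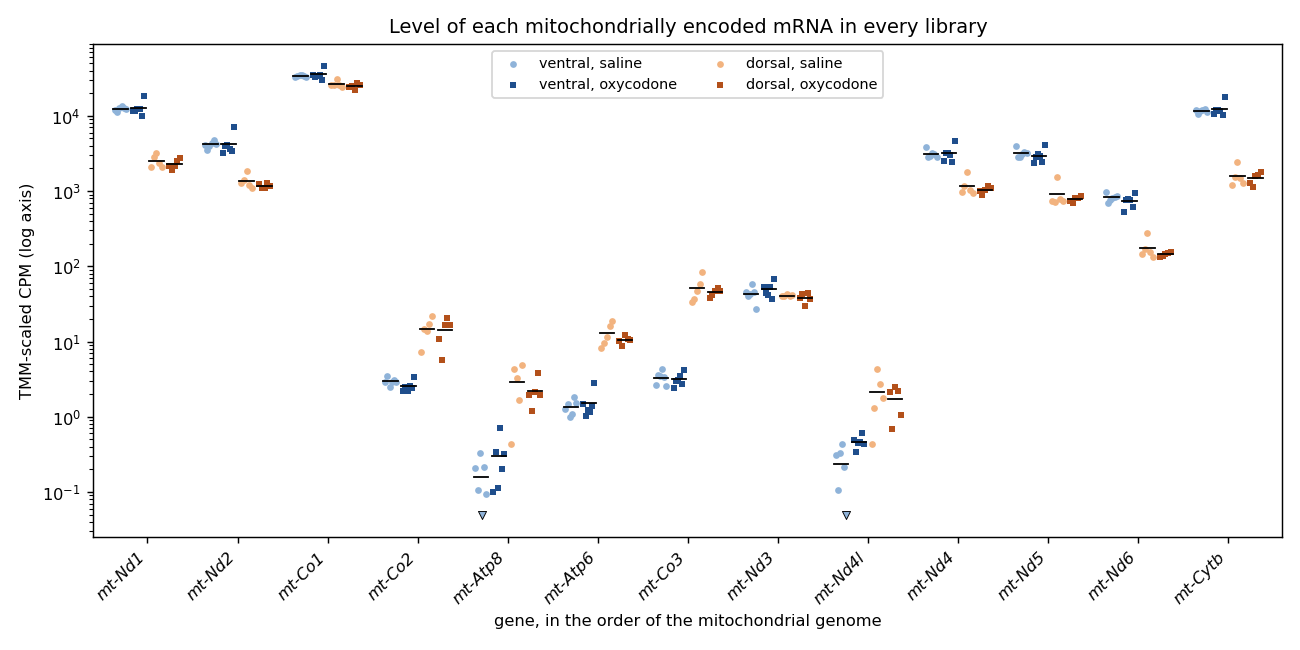
TMM-scaled CPM on a log axis (vertical) of each of the 13 genes in each library, with genes in genome order (horizontal). Points are libraries, black bars are group means, and the triangles at the bottom mark the 2 values of 0. Within a treatment, the dorsal points lie above the ventral ones from mt-Co2 to mt-Co3 and at mt-Nd4l. mt-Nd1, mt-Nd2, mt-Co1, mt-Nd4, mt-Nd5, mt-Nd6 and mt-Cytb are higher in the ventral libraries of each treatment.

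The following sequences are shown because several of the members, low and high, have near-perfect copies in the nuclear genome, which bears on how their reads can be assigned. On chromosome 1, 7 annotated pseudogenes lie in a row on the minus strand, in the order of their mitochondrial counterparts. Their aligned parts span chr1:24611535-24616188, 4654 bases, opposite chrM:6390-11042. Gm28661 matches mt-Co2 over 681 bases, Gm10925 matches mt-Atp6 over 678, Gm28437 matches mt-Co3 over 783, Gm10222 matches mt-Nd4l over 294 and Gm28439 matches mt-Nd4 over 876, all without a difference. Gm28438 matches mt-Nd3 over 345 bases with 1 difference, and Gm29216 matches 483 bases of mt-Co1 with 1 difference. Of the 7 only Gm10222 is in the count table. Each sequence is given 5′ to 3′ on the gene's own strand, from the GENCODE M21 transcripts on GRCm38. Capitals mark the bases that differ.
mt-Nd4l: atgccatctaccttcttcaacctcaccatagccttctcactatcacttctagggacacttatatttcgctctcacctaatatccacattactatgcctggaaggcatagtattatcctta
Gm10222: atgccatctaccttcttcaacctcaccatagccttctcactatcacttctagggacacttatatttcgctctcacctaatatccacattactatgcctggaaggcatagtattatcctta
mt-Nd3: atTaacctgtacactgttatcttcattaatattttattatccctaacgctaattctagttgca
Gm28438: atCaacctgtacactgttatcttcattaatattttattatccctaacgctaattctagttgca
mt-Co1: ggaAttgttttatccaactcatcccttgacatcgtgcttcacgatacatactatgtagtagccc
Gm29216: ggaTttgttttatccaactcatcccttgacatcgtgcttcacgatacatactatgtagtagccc
mt-Cytb: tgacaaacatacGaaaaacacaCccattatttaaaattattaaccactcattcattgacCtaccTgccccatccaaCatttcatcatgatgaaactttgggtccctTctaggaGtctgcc
Gm11410: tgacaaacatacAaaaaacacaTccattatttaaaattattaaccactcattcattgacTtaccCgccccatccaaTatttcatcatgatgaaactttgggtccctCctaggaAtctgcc

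The first 120 bases of mt-Nd4l (chrM:9877-9996) and of its copy (chr1:24612581-24612700) are the same letter for letter. mt-Nd3 (shown from chrM:9459-9521) and its copy (chr1:24613057-24613119) differ by T3C, the mitochondrial base first, counted from 1 at the gene's 5′ end. mt-Co1 (chrM:6390-6453) and its copy (chr1:24616125-24616188) differ by A1066T. mt-Cytb has no copy on that row, and its copy Gm11410 (chr4:80003990-80004109) has 7 differences in the 120 bases shown opposite chrM:14146-14265. They are G14A, C24T, C61T, T66C, C78T, T108C and G115A.

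Exact sharing with any annotated nuclear transcript was counted in windows of 50 bases along each gene. mt-Co2 shared 100% of its windows, mt-Co3 99.9%, mt-Atp6 99.5%, mt-Nd4l 98.8% and mt-Nd3 98.0%. mt-Nd4 shared 62.2% and mt-Co1 51.1%, mt-Nd2 shared 8.2% and mt-Nd5 7.6%, and mt-Nd1, mt-Nd6, mt-Cytb and mt-Atp8 shared none. The 4 genes of highest sharing were therefore among the 5 of lowest level. mt-Nd3 shared nearly as much but stood well above them, and mt-Atp8 was among the lowest with no shared window of this length. The shares depend on the window. At 36 bases mt-Atp8 shared 4.7% and mt-Co1 59.7%, and at 100 bases 0.0% and 30.8%. The position of mt-Atp8 (chrM:7766-7969) begins inside the 233 bases between the mitochondrial matches of Gm28661 and Gm10925 (chrM:7694-7926). On chromosome 1 the same pair of pseudogenes is also 233 bases apart (chr1:24614652-24614884), and no transcript is annotated in that interval. How reads that fit a gene and a copy were counted is not given in the sources used here, and the part of such reads in these levels was not tested.

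**Figure D3:**
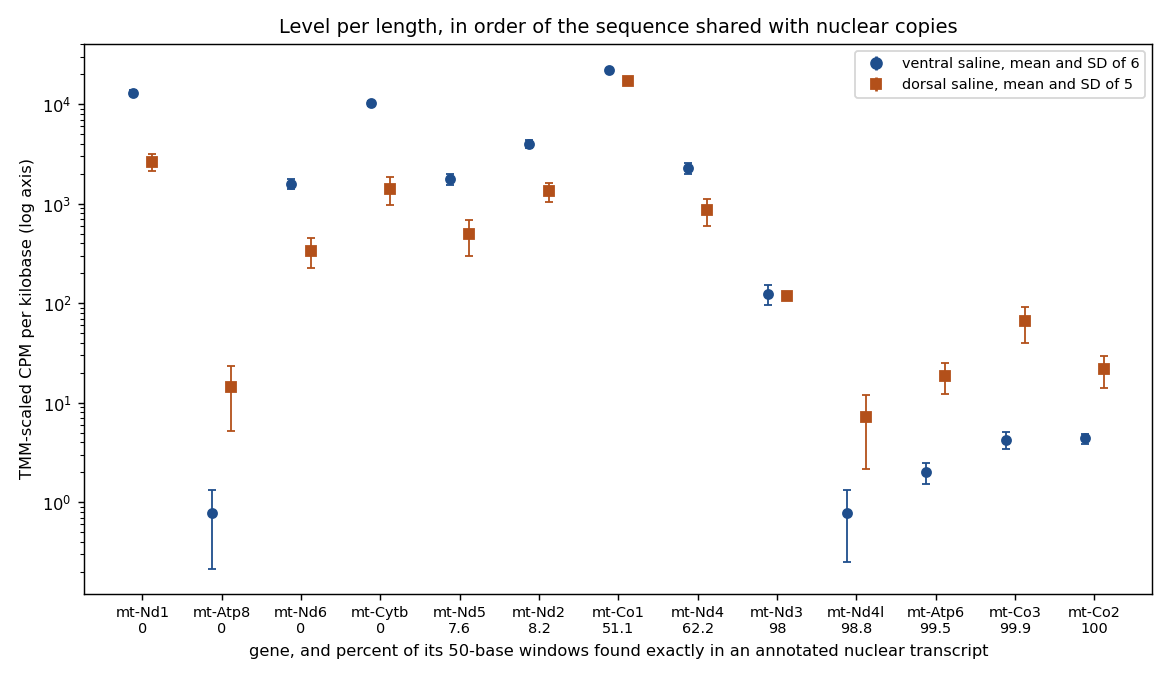
TMM-scaled CPM per kilobase on a log axis (vertical; mean and SD of the saline libraries) for the 13 genes, ordered by the percent of their 50-base windows found exactly in an annotated nuclear transcript (horizontal). The 4 genes at 98.8% to 100% lie at the bottom in both regions, together with mt-Atp8 at 0%, and mt-Nd3 at 98.0% lies between them and the rest.

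Whether oxycodone self-administration changed the mitochondrial messages was asked in each region. In the ventral striatum 11 of the 13 genes passed the filter on low counts, and none of the 11 passed the threshold of 0.05 on the edgeR adjusted p. No gene of the table did so, which makes the background 0.0% of 14116 genes. At an unadjusted p under 0.05 there were 1289 genes, none of them mitochondrial. DESeq2 called 45 genes of the table and limma-voom 61, again with 0 mitochondrial ones. The median log2 difference of the 11 members was 0.04, with 7 above and 4 below 0, against -0.0033 over all genes tested. The lowest unadjusted p was 0.17, that of mt-Co2.

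Among the ventral complex I genes, mt-Nd1 had 11119, 12604 and 13435 CPM at the lowest, median and highest of the saline libraries, and 10026, 11875 and 18558 CPM with oxycodone. Only replicate 6 exceeded the saline range, and replicate 5 fell below it. The edgeR log2 difference was 0.04 with a 95% interval from -0.24 to 0.32. mt-Nd2 had 3549, 4200.4 and 4740.0 CPM against 3239, 3777 and 7159 CPM, with a log2 difference of 0.04 (-0.34 to 0.42). mt-Nd4, mt-Nd5 and mt-Nd6, the last of which is read from the opposite strand, had log2 differences of 0.03, -0.11 and -0.16. mt-Nd3, with saline libraries at 27.0 to 57.9 CPM and oxycodone libraries at 36.7 to 68.2 CPM, had a log2 difference of 0.21 (-0.17 to 0.59). mt-Nd4l had 0 to 4 counts in the saline libraries and 3 to 6 in the oxycodone libraries, below the filter. Its value of 0, in saline replicate 6, allows up to 0.273 CPM, a limit that covers counting error only.

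The ventral genes of the other complexes overlapped between the treatments too. mt-Cytb had 10649, 11902 and 12409 CPM in the saline libraries and 10235, 11724 and 17900.4 CPM with oxycodone, with a log2 difference of 0.10 (-0.17 to 0.37). mt-Co1 had 32569, 33576 and 35359.6 CPM against 29969.9, 34525 and 45375 CPM, a log2 difference of 0.09 (-0.11 to 0.29). In both genes 3 of 6 oxycodone libraries lay inside the saline range and the rest on either side of it. mt-Co2, which carries the copper center that takes electrons from cytochrome c, had 2.51, 2.94 and 3.54 CPM against 2.19, 2.46 and 3.34 CPM, with 3 of 6 oxycodone libraries below all saline ones. Its log2 difference was -0.22 (-0.55 to 0.11). mt-Co3, the third core subunit of complex IV, and mt-Atp6, the proton channel subunit of ATP synthase, had log2 differences of -0.06 (-0.44 to 0.33) and 0.18 (-0.41 to 0.76). mt-Atp8, a small membrane subunit of ATP synthase, had 0 to 3 counts against 1 to 6. Its value of 0, in saline replicate 4, allows up to 0.324 CPM.

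The direction of the ventral differences rested on few libraries. Without both sixth libraries, all 11 tested genes were below 0, with a median log2 difference of -0.14, and without ventral oxycodone replicate 6 alone 10 of 11 were, with a median of -0.11. In lane 1 alone (4 libraries a treatment) the median was -0.09 with 8 of 11 below 0, and in lane 2 (2 a treatment, both sixth libraries among them) it was 0.25 with 2 of 11 below 0. No mitochondrial gene was called in any of these fits. That library also had the choroid plexus markers given above, whose part in its high mitochondrial level was not tested.

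In the dorsal striatum all 13 genes passed the filter, and 0 were called at an edgeR adjusted p under 0.05, against a background of 0.206% (30 of 14595 genes; 0.199% higher and 0.00685% lower). None had an unadjusted p under 0.05, and neither DESeq2 nor limma-voom called a member. All 13 log2 differences were below 0, from -0.41 to -0.09 with a median of -0.20. Of all genes tested 52.1% were below 0, with a median of -0.0083. The 13 are measured in the same libraries, so their signs are not independent. Without dorsal saline replicate 3, the library with the highest mitochondrial share of its group, 9 of 13 were below 0 and the median was -0.06. Without dorsal saline replicate 5 it was 11 of 13, with a median of -0.18. Choroid plexus and ependyma markers summed to 381 CPM in saline replicate 3 and to 2065 to 3594 CPM in the other 4 saline libraries. In the dorsal oxycodone libraries they ran from 82.6 to 3282 CPM, with replicate 3, the library of lowest mitochondrial share, at 219 CPM and replicate 4, that of highest share, at 82.6 CPM. Microglia markers (6 of 6 in the table, none at 0) summed to 347 to 375 CPM with saline and 379 to 515 CPM with oxycodone. Endothelial and mural markers (6 of 6, none at 0) summed to 285 to 317.7 and 318.5 to 451 CPM. Neither list overlapped, but the gaps were narrow. Other lists overlapped, with astrocytes at 1718 to 1844 and 1688 to 2382 CPM and oligodendrocytes at 2932 to 3886 and 2819 to 4180.5 CPM. Projection neuron markers were at 8821 to 9728 and 8206 to 9704 CPM, and the glutamatergic and septum lists overlapped too. Blood markers (5 of 5, none at 0) summed to 407 to 624.98 and 589.5 to 1766 CPM. The part of these markers in the difference was not tested. Among libraries without the title suffix P 12 of 13 members were below 0 (median -0.12), and among those with it 11 of 13 (median -0.26). With the pairs that share a title number summed, all 13 were below 0 with a median of -0.11.

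mt-Nd2 had the lowest unadjusted p of the dorsal comparison, 0.0637, and an edgeR adjusted p of 0.907. Its dorsal saline libraries had 1298, 1409.6, 1855, 1218 and 1099 CPM, and its oxycodone libraries 1229, 1089, 1106, 1283 and 1184 CPM. Of the 5 oxycodone values 4 lay in the lower part of the saline range and 1 lay just below it. The log2 difference was -0.22 with a 95% interval from -0.46 to 0.01. mt-Nd1 had 2115, 2835, 3232, 2359 and 2094 CPM with saline and 2130.2, 1886, 2164, 2504 and 2752 CPM with oxycodone. These groups overlapped almost entirely, with a log2 difference of -0.14 (-0.46 to 0.18).

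mt-Nd5 shows what 1 library did to the dorsal complex I genes. Its saline libraries had 731, 714, 1525, 795 and 739 CPM and its oxycodone libraries 734, 694, 798, 817 and 870.2 CPM. Replicate 3 of the saline group stood far above the others, and the remaining 4 fell inside the oxycodone range. The log2 difference was -0.20 (-0.72 to 0.32) with that library and 0.07 without it. mt-Nd4 and mt-Nd6 were also highest in that library, at 1807 and 275 CPM against at most 1157 and 169 CPM in the other saline libraries, and had log2 differences of -0.17 and -0.28. mt-Nd3 varied little among the saline libraries and more among the oxycodone ones, with 39.9, 40.9, 42.6, 39.7 and 41.2 CPM in saline and 37.5, 42.2, 29.8, 44.8 and 36.3 CPM in oxycodone libraries, a log2 difference of -0.10 (-0.36 to 0.17). mt-Nd4l had 5, 15, 60, 61 and 38 counts against 38, 12, 35, 31 and 15, and its interval, -1.55 to 0.92, was the widest of the 13.

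For the other dorsal complexes the groups overlapped too. mt-Cytb had 1209, 1522, 2467, 1514 and 1298 CPM with saline and 1296, 1117, 1574, 1649 and 1777 CPM with oxycodone, a log2 difference of -0.11 (-0.61 to 0.39). mt-Co1 had 25693, 25311, 30419.9, 25638 and 24509.7 CPM against 24128, 24804, 22293.5, 27168 and 25423 CPM, a log2 difference of -0.09 (-0.21 to 0.04). For both genes saline replicate 3 was the highest of the 10 libraries.

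The low genes of complex IV and ATP synthase overlapped between the dorsal groups as well. mt-Co2 had 7.23, 14.5, 13.7, 17.1 and 21.98 CPM with saline and 10.7, 5.64, 16.7, 20.4 and 16.7 CPM with oxycodone. mt-Co3 had 33.2, 36.6, 47.2, 57.6 and 83.0 CPM against 37.8, 41.7, 46.9, 51.1 and 46.7 CPM. The oxycodone values of mt-Co3 all lay inside the saline range. mt-Atp6 had 8.29, 9.48, 11.6, 15.9 and 18.7 CPM against 10.2, 8.60, 12.3, 10.9 and 10.4 CPM, and mt-Atp8 had 5, 49, 46, 37 and 106 counts against 35, 21, 30, 54 and 27. Log2 differences were -0.10 (-0.72 to 0.52) for mt-Co2, -0.21 (-0.63 to 0.22) for mt-Co3, -0.30 (-0.78 to 0.19) for mt-Atp6 and -0.41 (-1.53 to 0.72) for mt-Atp8. For mt-Co3 and mt-Atp6 saline replicate 5 was the highest of the 10 libraries.

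**Figure D4:**
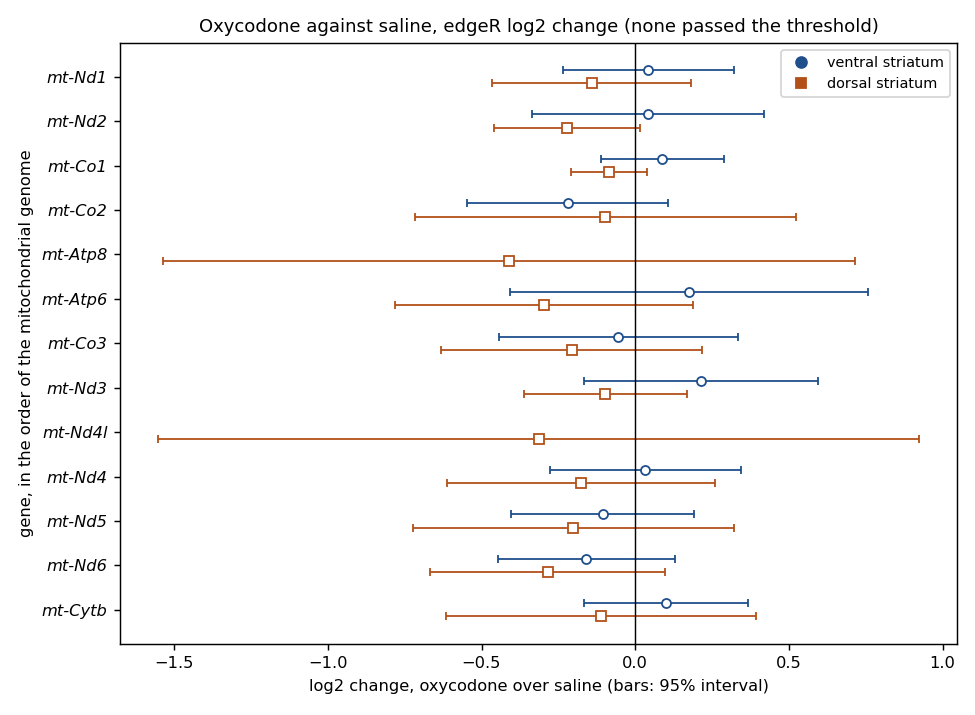
Log2 difference between oxycodone and saline libraries (horizontal axis, edgeR estimate with its 95% interval) for each gene in genome order (vertical axis), in ventral and dorsal striatum. All intervals include 0, and mt-Atp8 and mt-Nd4l were tested in the dorsal libraries only.

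Whether the oxycodone difference itself differed between the regions was tested as a contrast over all 22 libraries. None of the 13 genes passed, and the background was again 0.0% (0 of 14938 genes, with 674 at an unadjusted p under 0.05 and 0 called by DESeq2 or limma-voom). The contrast, dorsal minus ventral, was below 0 for 12 of 13 members, whose signs are not independent, with a median of -0.20, against 0.006 over all genes. Without both sixth ventral libraries it was below 0 for 10 of 13 with a median of -0.07, and without dorsal saline replicate 3 for 8 of 13 with a median of -0.11. mt-Nd4l had the lowest unadjusted p of the 13, 0.116, with a log2 contrast of -1.31 (-2.97 to 0.35).

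Between dorsal and ventral striatum nearly every tested gene differed, and not in 1 direction. In the saline libraries 11 genes passed the filter and 10 were called by edgeR, 3 higher and 7 lower in dorsal tissue. The background was 45.8% of 14433 genes in either direction, 23.6% higher and 22.3% lower. In the oxycodone libraries 12 passed. Among them mt-Atp8 passed through the dorsal libraries alone and had to differ, and of the other 11 all were called, 3 higher and 8 lower, with a background of 47.2% of 14375 genes, 23.5% higher and 23.7% lower. The median log2 change of the members that passed was -1.40 and, with mt-Atp8 included, -1.07, against -0.01 and -0.0070 over all genes. These comparisons use the same libraries as the oxycodone comparisons and are given beside them, not as further evidence. The share of all genes without overlap between the regions was not counted, so absence of overlap only describes each member.

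Of the 7 complex I messages 5 were lower in dorsal tissue in both treatments, while mt-Nd3 and mt-Nd4l were not. mt-Nd1 (ENSMUSG00000064341, chrM:2751-3707) fell by 2.29 on the log2 scale (4.9-fold, SE 0.11, edgeR adjusted p 5.42e-09) in saline libraries and fell by 2.49 (5.61-fold) in oxycodone libraries. All 5 dorsal libraries of each treatment lay below all 6 ventral ones. mt-Nd6 (ENSMUSG00000064368, chrM:13552-14070), the only member on the minus strand, had log2 changes of -2.22 with saline and -2.36 with oxycodone. For mt-Nd5 (chrM:11742-13565) they were -1.83 and -1.93, for mt-Nd2 (chrM:3914-4951) -1.59 and -1.87, and for mt-Nd4 (chrM:10167-11544) -1.40 and -1.61, again with no overlap between the regions. The edgeR adjusted p of these 4 genes was at most 1.89e-05. mt-Nd5 and mt-Nd6 share 14 bases and the strand setting of the counting is not given in the sources used here, so mt-Nd6 and RNA antisense to it cannot be told apart.

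mt-Nd3 (ENSMUSG00000064360, chrM:9459-9806) had a log2 difference of -0.07 (SE 0.14, edgeR adjusted p 0.713) between dorsal and ventral saline libraries. The dorsal values, 39.7 to 42.6 CPM, all lay inside the ventral range of 27.0 to 57.9 CPM. In oxycodone libraries it fell by 0.39 (SE 0.15, adjusted p 0.0414), with 2 of 5 dorsal libraries below all ventral ones. Without ventral oxycodone replicate 6 the log2 value was -0.26 with an adjusted p of 0.110, and 4 of the 11 fits that left out 1 library kept the call. mt-Nd4l (chrM:9877-10173), which shares 7 bases with mt-Nd4, failed the filter in both comparisons. It had 0 to 4 counts in ventral saline libraries and 5 to 61 in dorsal ones, and 3 to 6 against 12 to 38 with oxycodone. mt-Nd3 and mt-Nd4l share 98.0% and 98.8% of their 50-base windows with annotated nuclear transcripts. The part of reads that fit both was not tested.

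Complex III is represented by mt-Cytb alone, and its change was the deepest fall of the 13 genes. mt-Cytb (ENSMUSG00000064370, chrM:14145-15288) fell by 2.86 on the log2 scale (7.24-fold, SE 0.17, edgeR adjusted p 5.39e-08) in saline libraries. In oxycodone libraries it fell by 3.08 (8.44-fold, SE 0.17). Ventral saline libraries ranged from 10649 to 12409 CPM and dorsal ones from 1209 to 2467 CPM.

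The counts of the 3 complex IV genes split. mt-Co2 and mt-Co3 share 100% and 99.9% of their 50-base windows with annotated nuclear transcripts, and mt-Co1 51.1%. The part of reads that fit both a gene and a copy was not tested. mt-Co1 (ENSMUSG00000064351, chrM:5328-6872) fell by 0.35 on the log2 scale (1.28-fold, SE 0.06, edgeR adjusted p 0.000342) in saline libraries and fell by 0.53 (1.45-fold) in oxycodone libraries. Its regions did not overlap, at 32569 to 35359.6 CPM against 24509.7 to 30419.9 CPM with saline. mt-Co2 (ENSMUSG00000064354, chrM:7013-7696) rose by 2.32 (5.00-fold, SE 0.25, adjusted p 3.81e-06) and by 2.44 with oxycodone. mt-Co3 (ENSMUSG00000064358, chrM:8607-9390) rose by 3.97 (15.7-fold, SE 0.24, adjusted p 3.82e-08) and by 3.81 with oxycodone. In counts, mt-Co3 went from 25 to 39 in a ventral saline library to 376 to 1787 in a dorsal one, and mt-Co2 from 23 to 33 to 82 to 473.

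Both ATP synthase genes had higher counts in dorsal tissue, from very low levels. mt-Atp6 shares 99.5% of its 50-base windows with annotated nuclear transcripts, and the part of reads that fit both was not tested. mt-Atp6 (ENSMUSG00000064357, chrM:7927-8607) rose by 3.23 on the log2 scale in saline libraries (9.4-fold, SE 0.27, edgeR adjusted p 4.32e-07) and by 2.75 with oxycodone. It had 9 to 17 counts in ventral and 94 to 403 in dorsal saline libraries. mt-Atp8, which shares 43 bases with mt-Atp6, had 0 to 3 and 5 to 106 counts and failed the filter there. In oxycodone libraries it passed through the dorsal group alone, which left it bound to differ, and its log2 value was 2.86 with SE 0.50. For mt-Co2, mt-Co3 and mt-Atp6 every dorsal library exceeded every ventral library of its treatment. So it was for mt-Atp8 and mt-Nd4l, but in saline libraries by a gap of few counts. The lowest dorsal value of both was 0.441 CPM, and the highest ventral values were 0.327 and 0.436 CPM.

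**Figure D5:**
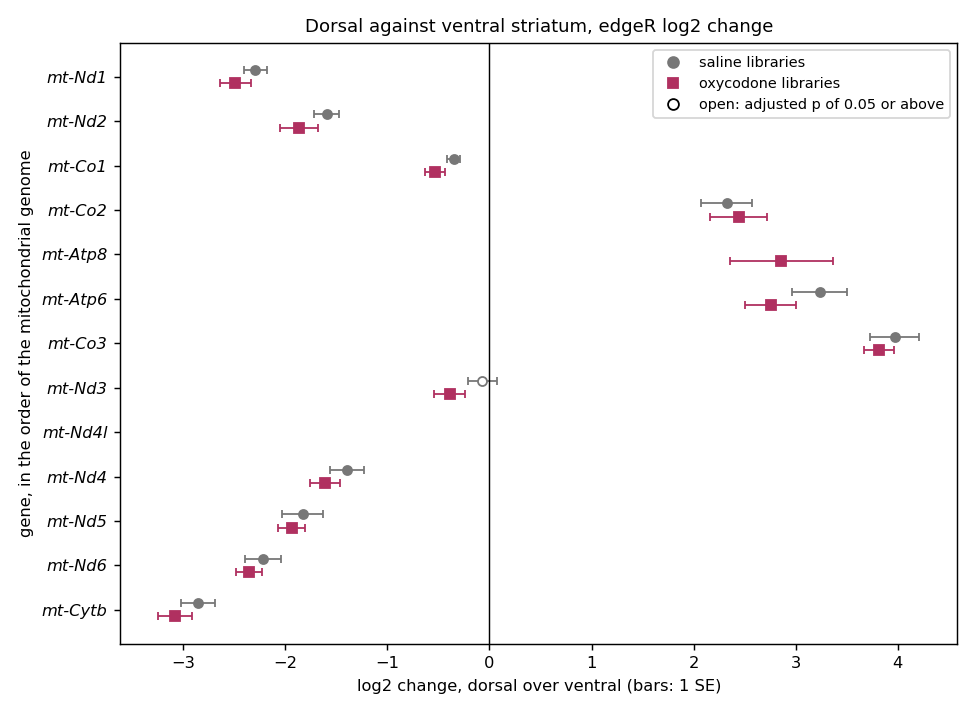
Log2 change from ventral to dorsal striatum (horizontal axis, edgeR estimate with 1 SE on either side) for each gene in genome order (vertical axis), in saline and in oxycodone libraries. Filled points passed an adjusted p of 0.05. mt-Co2, mt-Atp6, mt-Co3 and, in oxycodone libraries, mt-Atp8 lie right of 0 at 2.32 to 3.97. mt-Nd3 lies near 0 in saline libraries, at -0.07, and left of 0 in oxycodone libraries, at -0.39. The other tested genes lie left of 0, down to -3.08 for mt-Cytb.

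Gm10222, the pseudogene identical to mt-Nd4l over 294 bases, was looked at after its values had been seen, since its mean is below 1 CPM. It had 0 to 3 counts in the ventral libraries, 14 to 60 in dorsal saline and 12 to 34 in dorsal oxycodone libraries. It passed the filter through the dorsal libraries alone, so no test between regions is given. mt-Nd4l itself had 0 to 6 counts in ventral and 5 to 61 in dorsal libraries.

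Cell type markers moved with region. Summed oligodendrocyte markers (7 of 7 in the table, none at 0 in a group) were 2819 to 4180.5 CPM in dorsal libraries. They were 435 CPM in ventral saline replicate 6, 3169 in ventral oxycodone replicate 6 and 1223 to 2517 in the other ventral libraries. Astrocyte markers (6 of 6) were 1199 to 1631 CPM in ventral and 1688 to 2382 CPM in dorsal libraries. Choroid plexus and ependyma markers (6 of 6) were 82.6 to 3594 CPM in dorsal libraries. They were 1809.6 CPM in ventral oxycodone replicate 6 and 22.7 to 76.9 in the other ventral libraries. Markers of septum, preoptic area and pallidum (6 of 6) had higher ventral medians, 107 and 78.6 CPM with saline and oxycodone, against dorsal 40.9 and 37.1. So had glutamatergic markers (8 of 8), 299.9 and 296.8 against 119.9 and 147 CPM, with overlap and ventral saline replicate 6 at 1416. The part of these lists in the regional differences was not tested. Without ventral saline replicate 6 the saline comparison called 10 of 11 members, 3 higher and 7 lower. Of all genes that fit called 7227 of 14256, 3889 higher and 3338 lower.

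Nuclear genes that maintain and express the mitochondrial genome were listed in 7 roles, from transcription and RNA decay to translation factors and regulators of biogenesis. Of 93 listed, 90 were tested. After oxycodone 0 of 90 were called in either region, with a median log2 difference of 0.02 in ventral and -0.03 in dorsal tissue. Gabpa, a subunit of the nuclear respiratory factor NRF-2, had the lowest p in ventral tissue, at 44.2 ± 3.11 and 53.6 ± 7.69 CPM (SD, n = 6 and 6; edgeR adjusted p 0.402). Nsun4, a mitochondrial ribosomal RNA methyltransferase, had it in dorsal tissue, at 11.9 ± 2.16 and 16.7 ± 2.49 CPM (n = 5 and 5; adjusted p 0.715).

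Between regions 29 of the 90 were called in saline libraries, 18 higher and 11 lower in dorsal tissue, and 34 in oxycodone libraries, 19 and 15. Both shares lie below the background of all genes given above. Of the 8 regulators of biogenesis, 1 rose and 4 fell in saline libraries. Ppargc1a, which encodes the coactivator PGC-1alpha, fell by 1.05 on the log2 scale in saline libraries, from 71.1 ± 4.12 to 34.2 ± 2.98 CPM (edgeR adjusted p 3.04e-07), and fell by 1.12 in oxycodone libraries. Pprc1, a related coactivator, fell by 1.02 in saline libraries. Mrpl12, a protein of the mitochondrial ribosome that also binds the mitochondrial RNA polymerase, rose by 1.45 in saline libraries, from 15.2 ± 2.25 to 41.1 ± 8.66 CPM (adjusted p 3.93e-06). Ptcd1, which acts in mitochondrial RNA processing, rose by 0.90.

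The nuclear-encoded partners of the same complexes were more often higher than lower in dorsal tissue. Of 74 tested (75 listed), 0 were called after oxycodone in either region, with medians of 0.04 in ventral and -0.07 in dorsal tissue. Between regions 56 were called in saline libraries, 44 higher and 12 lower, with a median of 0.34, beside a background of 23.6% higher and 22.3% lower. In oxycodone libraries 51 were called, 35 higher and 16 lower, with a median of 0.22, beside 23.5% and 23.7%. By complex, the saline counts of higher and lower genes were 19 and 7 of 36 for complex I, 5 and 2 of 9 for complex III, 8 and 0 of 11 for complex IV, and 12 and 3 of 18 for ATP synthase. The complex I messages of the mitochondrial genome had 5 falls among the 6 tested in saline libraries, and mt-Nd4l, which was not tested, had more counts in dorsal tissue. Of the nuclear ones more rose than fell. Whether the lists differ from each other was not tested.

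Some nuclear partners changed strongly between the saline regions. Atp5l, subunit g of ATP synthase, rose by 3.44 on the log2 scale, from 2.94 ± 0.583 to 31.9 ± 6.00 CPM (SD, n = 6 and 5; edgeR adjusted p 7.44e-09). Ndufb4, an accessory subunit of complex I, rose by 2.33, from 11.1 ± 0.877 to 55.4 ± 8.60 CPM (adjusted p 5.92e-09). Atp5g1, which encodes a copy of the c subunit of ATP synthase, rose by 1.82, and Cox4i1, a regulatory subunit of cytochrome c oxidase, by 1.01, from 288 ± 14.0 to 576 ± 29.8 CPM. After oxycodone the lowest unadjusted p among them were those of Cox7c in ventral tissue, 0.046 with an adjusted p of 0.534, and Uqcrc2, a core protein of complex III, in dorsal tissue, 0.0194 with an adjusted p of 0.704.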

How the data were processed

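Total RNA from 22 libraries was depleted of ribosomal RNA and made into stranded libraries, per the labels' protocols. The deposited values are raw counts of reads per Ensembl gene, made by the authors with CASAVA 1.8.2, STAR 2.3 and featureCounts, per the submitters' processing notes, which list the builds mm10, GRCm38 and mm9 without a role. Read length, the handling of reads with several positions and the strand setting are not given in the sources used here.

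Genes were matched by Ensembl identifier to GENCODE M21 (22205 of 23119). Each comparison used edgeR 4.0.16 (R 4.3.3) with TMM scaling, its filter on low counts, robust quasi-likelihood fits on the groups compared and Benjamini-Hochberg adjustment over all genes tested, at a threshold of 0.05. The difference between regions was fitted on all 22 libraries. Nuclear copies were sought among annotated transcripts with BLAST 2.17.0 (word size 20, e-value 1e-05). The fits were tested on simulated data. No library pair agreed within sampling noise (lowest chi-square per degree of freedom 2.88). Limits set from 3 counts use library totals without TMM factors and cover counting error only.

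All 13 members were named, with up to 4 genes of lowest unadjusted p from each nuclear list and comparison, of which the text gives some. Members and lists were chosen with earlier results of these data known. Alternatives were other scaling factors, scaling without the mitochondrial genes, no filter, DESeq2 1.42.0, limma-voom (limma 3.58.1), non-robust dispersions, a threshold of 0.1, leaving out libraries, lanes, the title suffix, summed pairs, a replicate block, thinned dorsal counts, other denominators and other gene lengths.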

Additional observations from a re-analysis of the deposited data

Results flagged for a closer look

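Of 56 groups of values, 16 held a library that stood far from the rest of its group, always at the high end, and chance gives about 1 in 20 groups. All 16 came from 3 libraries, and values within a library are not independent. Ventral oxycodone replicate 6 had 18558 CPM of mt-Nd1, 7159 of mt-Nd2, 45375 of mt-Co1, 3.34 of mt-Co2, 2.80 of mt-Atp6, 4593 of mt-Nd4 and 17900.4 of mt-Cytb. The next highest libraries of its group had 12291, 4099, 35401, 2.58, 1.49, 3185 and 12114 CPM. Its mitochondrial share of counts was 9.25%, against at most 7.05% in the other 5.

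Dorsal saline replicate 3 had 30419.9 CPM of mt-Co1, 1807 of mt-Nd4, 1525 of mt-Nd5, 275 of mt-Nd6 and 2467 of mt-Cytb, with next highest values of 25693, 1157, 795, 169 and 1522 CPM. Its mitochondrial share was 4.12%, against at most 3.35% in the other 4. Ventral saline replicate 1 had 3838 CPM of mt-Nd4 and 4009 of mt-Nd5, next to 3180.5 and 3276 CPM.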

How the results depend on the processing

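Over 60 gene results and 1481 alternatives, 46 values changed sign, in 23 results, none of them called. The number of members called was 0 in every oxycodone alternative, 10 to 12 between saline regions and 11 to 13 between oxycodone regions. The fits that tested all 13 members include mt-Atp8 and mt-Nd4l, which have few ventral counts and had to differ. Of all genes, the fit without a filter called 6803 of 19003 between saline and 6932 of 18854 between oxycodone regions. DESeq2 called 7241 of 17042 and 7141 of 17343. mt-Nd3 between oxycodone regions lost its call in 12 alternatives. In ventral tissue, limma-voom gave log2 differences of -0.048 for mt-Nd1, -0.0601 for mt-Nd2 and -0.033 for mt-Nd3. Lane 1 alone gave -0.043 for mt-Nd1, -0.097 for mt-Nd2, -0.091 for mt-Nd4 and -0.000766 for mt-Cytb, and lane 2 alone 0.25 for mt-Co3 and 0.041 for mt-Nd5. Without both sixth libraries the values were -0.10 for mt-Nd1, -0.17 for mt-Nd2, -0.0088 for mt-Co1, -0.0577 for mt-Atp6, -0.014 for mt-Nd3, -0.14 for mt-Nd4 and -0.054 for mt-Cytb, and the contrast between regions 0.012 for mt-Co3 and 0.020 for mt-Nd5. In dorsal tissue, libraries with the suffix P gave 0.22 for mt-Co2 and 0.098 for mt-Atp8, and those without it 0.24 for mt-Nd4l.

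Leaving out 1 library at a time, ventral ranges were -0.096 to 0.27 for mt-Atp6, -0.0026 to 0.13 for mt-Co1, -0.16 to 0.027 for mt-Co3, -0.043 to 0.15 for mt-Cytb, -0.10 to 0.10 for mt-Nd1, -0.18 to 0.11 for mt-Nd2 and -0.11 to 0.10 for mt-Nd4. Dorsal ranges were -0.27 to 0.11 for mt-Co2, -0.32 to 0.036 for mt-Co3, -0.19 to 0.099 for mt-Cytb, -0.25 to 0.033 for mt-Nd4, -0.56 to 0.10 for mt-Nd4l and -0.27 to 0.075 for mt-Nd5. mt-Nd3 between saline regions ran from -0.16 to 0.027. For the contrast between regions they were -0.050 to 0.33 for mt-Co2, -0.27 to 0.10 for mt-Co3, -0.30 to 0.0085 for mt-Cytb, -0.29 to 0.0089 for mt-Nd4, -0.18 to 0.19 for mt-Nd5 and -0.20 to 0.10 for mt-Nd6. The cause of these changes of sign was not tested.

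Title numbers were used as a replicate block between regions, though they are not said to mark a shared animal. Deviations of same-numbered libraries had correlations of -0.076 to 0.06 with saline and -0.037 to 0.309 with oxycodone. With the replicate block 12 of 13 members were called in each treatment, against 12 and 13 in the same libraries without it. mt-Atp8 and mt-Nd4l are among these 13, passed the filter through the dorsal libraries alone and had to differ. Of all genes the block fit called 5861 of 14499 with saline and 6657 of 14799 with oxycodone. Without the block the calls were 6484 and 6391.

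Over all genes, the ventral oxycodone calls were 0 with edgeR, 45 with DESeq2 and 61 with limma-voom. The dorsal calls were 30, 88 and 15, with 58 without robust dispersions, 45 without a filter and 1 to 63 when 1 library was left out. Per kilobase of windows found in no annotated nuclear transcript, an alternative chosen after seeing the data, mt-Co1 stood at 46194 CPM in ventral and 35998 CPM in dorsal saline libraries. Shares without the ribosomal RNA members were not run, since those genes have no values here. Depth limits mt-Atp8 and mt-Nd4l in ventral tissue, with at most 6 counts a library.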
